A study of Mus musculus with 2 samples.

Results

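Heat shock and chaperone transcripts were examined in single-nucleus RNA sequencing (snRNA-seq) of the mouse heart. The 10 genes were chosen by symbol from the gene table shared by both libraries: Hspa1a, Hspa1b, Hspa8, Hspa5, Hsph1, Dnajb1, Hsp90aa1, Hsp90ab1, Hspb1 and Hspb6, which are 10 of 32589 genes. They were read as a measure of stress during tissue handling, by summing their unique molecular identifiers (UMIs, each counted as 1 captured transcript) over nuclei. The study asked how blocking programmed cell death protein 1 (PD-1), an immune checkpoint receptor, affects the heart. There was 1 library from mice injected intraperitoneally with phosphate-buffered saline (PBS), called control, and 1 from mice that received InVivoPlus anti-mouse PD-1 antibody by the same route at 5 mg/kg on days 1 and 14 of a 28-day cycle, called PD-1 inhibitor. The mice were 8-week-old male C57BL/6 mice, and the number of hearts behind each library was not given. With 1 library per group there was no replicate and no test. Every interval below is a 95% interval for counting error only, and whether a difference came from the treatment or from how 1 library was made cannot be told apart.

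Chaperones of the HSP70 family bind unfolded protein and release it in cycles of ATP hydrolysis. Their co-chaperones set the pace of the cycle, with HSP40 proteins starting hydrolysis and HSP110 proteins exchanging the nucleotide. HSP90 proteins take over folded intermediates of kinases and receptors, and small heat shock proteins hold unfolding proteins without ATP. Cells keep Hspa8 and Hsp90ab1 at a steady level and induce Hspa1a, Hspa1b, Hsph1, Dnajb1 and Hspb1 through heat shock factor 1 when proteins unfold, while Hspa5 belongs to the endoplasmic reticulum (ER) and its unfolded protein response. Tissue dissociation and warming are known to induce the heat shock genes, and heart muscle is known for abundant small heat shock proteins.

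The libraries held 10197 and 7967 barcodes, of which 48 occurred in both, and 13177525 and 10875248 UMIs in control and PD-1 inhibitor. After filtering, 9522 control and 7644 PD-1 inhibitor nuclei remained, with medians of 1012 and 1055 UMIs, 12103951 and 10290085 UMIs in all, and 1.76% and 2.12% of UMIs from mitochondrial genes. Clustering gave 22 clusters, of which 21 carried the markers of 10 cell types: endothelial cells (ECs), fibroblasts, cardiomyocytes, mononuclear phagocytes (MPs), mural, mesothelial, T, B and glial cells and adipocytes. Nuclei numbered 2814 and 2513 for ECs, 2477 and 1970 for fibroblasts, 1280 and 1090 for cardiomyocytes and 1259 and 884 for MPs, and as few as 154 and 16 for adipocytes and 30 and 10 for glial cells. In each type and library all markers, or all but 1, were higher than in the remaining nuclei. The cluster without a name was led by cell cycle genes.

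The promoters below show which of the 10 genes carry the sequence read by heat shock factors and how alike Hspa1a and Hspa1b are. RefSeq promoter sequences (GRCm38.p6) were found for 7 of the 10 genes and not for Hspa8, Hsp90aa1 and Hsp90ab1. Each line gives the 250 bases before the transcription start, 5′ to 3′ on the gene's strand, and capitals mark a heat shock pair (GAANNTTC or TTCNNGAA, where N is any base, the core of a heat shock element) or, for Hspa5, the ER stress element. Hspa1a lies at chr17:34972157-34972406 (minus strand), Hspa1b at chr17:34959239-34959488 (minus strand), the first of 2 Hsph1 starts at chr5:149636337-149636586 (minus strand), Hspb1 at chr5:135887669-135887918 (plus strand) and Hspa5 at chr2:34771840-34772089 (plus strand).
Hspa1a: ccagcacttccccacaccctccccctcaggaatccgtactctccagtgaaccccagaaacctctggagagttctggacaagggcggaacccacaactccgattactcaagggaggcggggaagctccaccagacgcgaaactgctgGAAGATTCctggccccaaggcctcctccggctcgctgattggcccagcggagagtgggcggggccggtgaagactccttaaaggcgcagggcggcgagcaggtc
Hspa1b: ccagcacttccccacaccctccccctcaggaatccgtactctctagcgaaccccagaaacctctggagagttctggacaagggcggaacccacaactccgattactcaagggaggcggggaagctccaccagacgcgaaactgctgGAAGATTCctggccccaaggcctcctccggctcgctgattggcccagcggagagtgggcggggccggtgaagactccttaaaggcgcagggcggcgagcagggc
Hsph1: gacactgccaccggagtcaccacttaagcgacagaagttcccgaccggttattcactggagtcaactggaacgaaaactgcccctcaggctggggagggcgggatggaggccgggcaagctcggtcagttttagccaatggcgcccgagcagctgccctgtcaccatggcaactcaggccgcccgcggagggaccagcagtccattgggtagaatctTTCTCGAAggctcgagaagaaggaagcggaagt
Hspb1: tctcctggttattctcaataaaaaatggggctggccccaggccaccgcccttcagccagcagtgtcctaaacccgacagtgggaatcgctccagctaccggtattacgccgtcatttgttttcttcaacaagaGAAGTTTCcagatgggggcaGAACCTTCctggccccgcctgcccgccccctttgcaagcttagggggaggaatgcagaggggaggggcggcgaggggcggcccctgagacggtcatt
Hspa5: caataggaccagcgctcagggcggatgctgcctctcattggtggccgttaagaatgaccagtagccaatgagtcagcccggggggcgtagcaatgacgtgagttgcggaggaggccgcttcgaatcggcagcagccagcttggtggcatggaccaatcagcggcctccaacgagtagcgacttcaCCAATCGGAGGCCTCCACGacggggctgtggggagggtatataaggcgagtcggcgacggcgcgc

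Hspa1a and Hspa1b had the same 247 of 250 promoter bases and the same heat shock pair. Counted from 1 at the first printed base, with Hspa1a first, they differed by C44T, T47C and T249G. Hspb1 had 2 pairs and Hsph1 had 1, close to its start, while Hspa5 had none and neither did Dnajb1. Hspb6 had none before the first of its 2 starts and 1 GAANNTTC before the second, at bases -120 to -113 from that start. Searched on both strands, GAANNTTC occurred in 6.69% of 32851 mouse promoters of the same length, TTCNNGAA in 7.17%, and either in 12.8%. The ER stress element of Hspa5, a CCAAT box and CCACG at a fixed spacing, which overlaps the plain CCAAT box by its first 5 bases, occurred in 37 promoters, or 0.113%. A CCAAT box alone occurred in 33.8%. A match of letters describes the sequence and was not read as binding.

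In the gene annotation of the build used by the submitters (GRCm38), Hspa1a (chr17:34969190-34972156) and Hspa1b (chr17:34956436-34959238) were neighbours on the minus strand, each a single exon without introns. Their coding sequences had 1919 of 1926 aligned bases in common (99.6%), against 422 of 571 aligned bases of their 3′ untranslated regions (73.9%). How the counting assigned reads that fit both copies was not given, so the split between them is uncertain and their sum is given as well. The other genes have introns, among them Hsph1 (chr5:149614287-149636376, minus strand, up to 19 exons) with 32.9% of its span exonic, Hspa8 (chr9:40800984-40810087, plus strand) with 47.2%, and Hspb6 (chr7:30552178-30555443, plus strand) with 70.4%. Hspa5 lies at chr2:34771970-34777547 (plus strand), Hsp90aa1 at chr12:110690605-110702728 (minus strand), Hsp90ab1 at chr17:45567775-45573271 (minus strand), Dnajb1 at chr8:83608193-83612653 (plus strand) and Hspb1 at chr5:135887919-135889563 (plus strand). Hspb6 is overlapped on the opposite strand by Proser3 and Lin37, and Hspa1a by Gm20481, and whether the counting used strand was not given.

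Over all nuclei the inducible HSP70 genes and Hsph1 had lower levels in PD-1 inhibitor, and the constitutive and ER chaperones were nearly level. Past 1.5-fold, with at least 50 UMIs over both libraries, 3 of the 10 genes were lower (Hspa1a, Hspa1b and Hsph1), where 5.03% of 14372 genes were, and 0 were higher, where 4.57% were. The median log2 ratio of PD-1 inhibitor over control was -0.02 over the 10 genes and -0.01 over all 14372. Summed, the 10 genes made up 1698 CPM (UMIs per 1000000 UMIs of the library or, for a cell type, of its nuclei) in control and 1741 CPM in PD-1 inhibitor.

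Hspa1a, an inducible cytosolic HSP70, was at 13.5 CPM (11.5 to 15.7, 163 UMIs) in control and 7.87 CPM (6.25 to 9.78, 81 UMIs) in PD-1 inhibitor, a log2 ratio of -0.77 (-1.18 to -0.38). Its copy Hspa1b was at 10.7 CPM (130 UMIs) and 6.90 CPM (71 UMIs), a log2 ratio of -0.63 (-1.08 to -0.21). The sum of both, free of the split, was at 24.2 and 14.8 CPM, with a log2 ratio of -0.71 (-1.005 to -0.43). Control was the higher library for each, and the intervals of the levels did not overlap between the libraries for Hspa1a, Hspa1b or their sum. Hsph1, the HSP110 nucleotide exchange factor, was at 61.3 CPM (742 UMIs) in control and 37.4 CPM (385 UMIs) in PD-1 inhibitor, with a log2 ratio of -0.71 (-0.89 to -0.53). Dnajb1, the HSP40 co-chaperone induced with them, was at 23.7 CPM (287 UMIs) and 21.1 CPM (217 UMIs), a log2 ratio of -0.17 (-0.43 to 0.09) whose interval included equal levels. Dnajb1 was thus not among the genes past 1.5-fold.

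Hspa8, the constitutive HSP70, was at 285 CPM in control and 291 CPM in PD-1 inhibitor, with a log2 ratio of 0.03 (-0.04 to 0.10). Hspa5, the HSP70 of the ER lumen, was at 547 and 541 CPM, a log2 ratio of -0.02 (-0.07 to 0.04). Hsp90aa1, the inducible HSP90, was at 103 and 101 CPM, a log2 ratio of -0.02 (-0.14 to 0.10). All 3 intervals included equal levels and were narrow. The constitutive Hsp90ab1 was slightly higher in PD-1 inhibitor, at 519 against 483 CPM (0.10, 0.05 to 0.16). The small heat shock proteins were higher in PD-1 inhibitor but under 1.5-fold, with Hspb1 at 92.0 CPM in control and 120.4 CPM in PD-1 inhibitor (log2 ratio 0.39, 0.27 to 0.51) and Hspb6 at 78.7 and 94.7 CPM (0.27, 0.14 to 0.40). The plot of log2 ratios over all nuclei sets these values side by side.

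**Figure D1:**
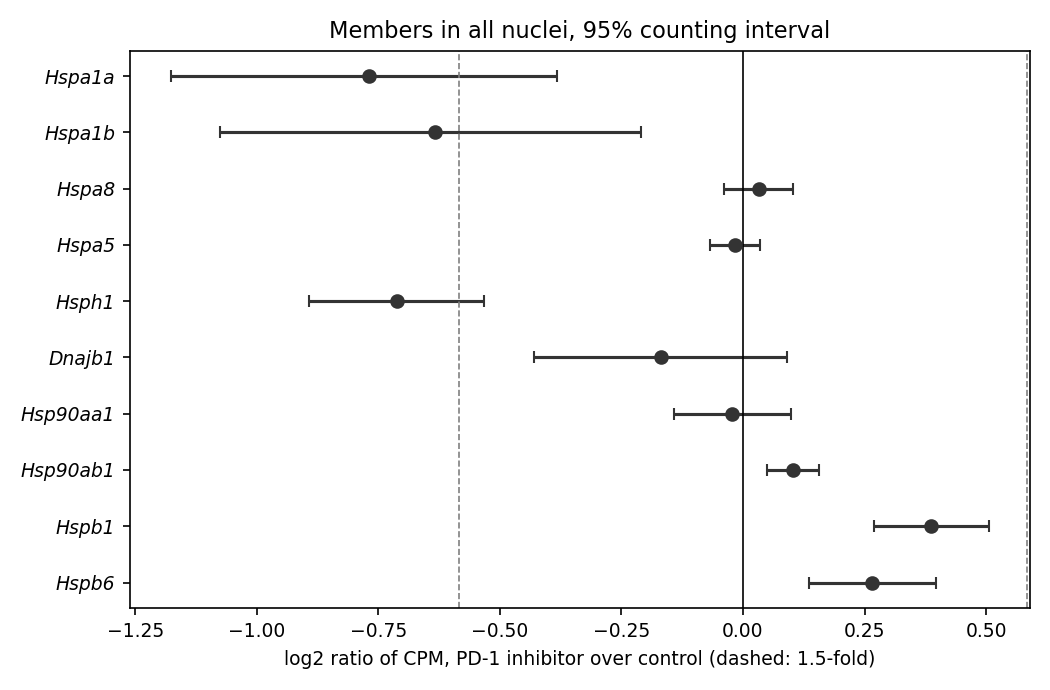
Log2 ratio of PD-1 inhibitor over control for each of the 10 genes over all nuclei, with 95% intervals for counting error only (1 library per group). Hspa1a, Hspa1b and Hsph1 lie at -0.77, -0.63 and -0.71, Hspa8, Hspa5 and Hsp90aa1 lie near 0, and Hspb1 is highest at 0.39.

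Within cell types, Hspa1a and Hspa1b together were found in mural, mesothelial, endothelial and fibroblast nuclei and in MPs, at lower levels in cardiomyocytes, and not in T or B cells. In control the sum was at 45.4 CPM (31 UMIs) in mural cells, 34.2 CPM (102 UMIs) in ECs, 29.1 CPM (23 UMIs) in mesothelial cells, 28.8 CPM (86 UMIs) in fibroblasts, 24.6 CPM (33 UMIs) in MPs and 7.02 CPM (17 UMIs) in cardiomyocytes. No UMI of either was found in T, B or glial nuclei in either library. For T cells, 0 of 235 control nuclei allows a share of nuclei with a UMI of up to 1.56%. In PD-1 inhibitor, 0 of 191 nuclei allows up to 1.91%. Of EC nuclei, 2.77% and 1.71% held a UMI of either gene. Median depths were 839 and 884 UMIs in T cells and 898 and 951 in ECs. Thinned to 500 UMIs a nucleus, the EC shares were 1.28% and 0.80%, below both limits. As levels, 0 UMIs in T cells allow up to 15.9 CPM in control, below the EC interval of 27.9 to 41.5 CPM. In PD-1 inhibitor they allow up to 18.8 CPM, within the EC interval of 14.9 to 25.5 CPM. T cells could thus be told from ECs in control by level and by unthinned share, but not by thinned share. In PD-1 inhibitor they could not be told apart. For B cells, 0 UMIs allow up to 17.6 CPM in control (175 nuclei) and 46.5 CPM in PD-1 inhibitor (80 nuclei). The second limit lies above the EC interval, so PD-1 inhibitor B cells could not be told from ECs either. The EC cluster led by Wnt9b held Hspa1a at 113 CPM in control and 54.8 CPM in PD-1 inhibitor, the highest level among the 6 EC clusters in both libraries. It had only 85 and 80 nuclei, and the highest median mitochondrial shares of the 6, at 4.04% and 2.81%. Over ECs split into 3 groups by mitochondrial share, Hspa1a was at 11.7, 12.3 and 45.9 CPM in control. In PD-1 inhibitor it was at 8.20, 9.72 and 21.1 CPM.

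The sum was lower in PD-1 inhibitor in 7 of the 7 types that held a UMI. Adipocytes count among them on 1 UMI in 154 control nuclei and 0 UMIs in 16 PD-1 inhibitor nuclei, which gives no direction. In 4 of the 7 the interval of the ratio excluded equal levels, a condition called beyond counting error here. In ECs it was at 19.7 CPM (57 UMIs) in PD-1 inhibitor, a log2 ratio of -0.79 (-1.29 to -0.32). In cardiomyocytes it was at 1.97 CPM (4 UMIs), a log2 ratio of -1.70 (-3.86 to -0.21), and in MPs at 10.9 CPM (11 UMIs) against 24.6 CPM (33 UMIs), -1.13 (-2.31 to -0.15). In mesothelial cells the ratio was -1.09 (-2.18 to -0.09). These intervals treat UMIs as independent, while the 33 UMIs of control MPs came from 19 nuclei. Intervals of the share of nuclei with a UMI overlapped between the libraries in each of these 4 types. In ECs they were 2.20% to 3.45% in control and 1.24% to 2.30% in PD-1 inhibitor. Fibroblasts, with 20.5 CPM (51 UMIs) in PD-1 inhibitor, had a ratio of -0.48 (-1.02 to 0.03), and mural cells -0.47 (-1.49 to 0.43), both with intervals that include equal levels. Over clusters, 16 of the 17 with a UMI had a lower sum in PD-1 inhibitor, 4 beyond counting error and 0 higher beyond it. The adipocyte cluster is among the 16 on the same 1 and 0 UMIs.

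**Figure D2:**
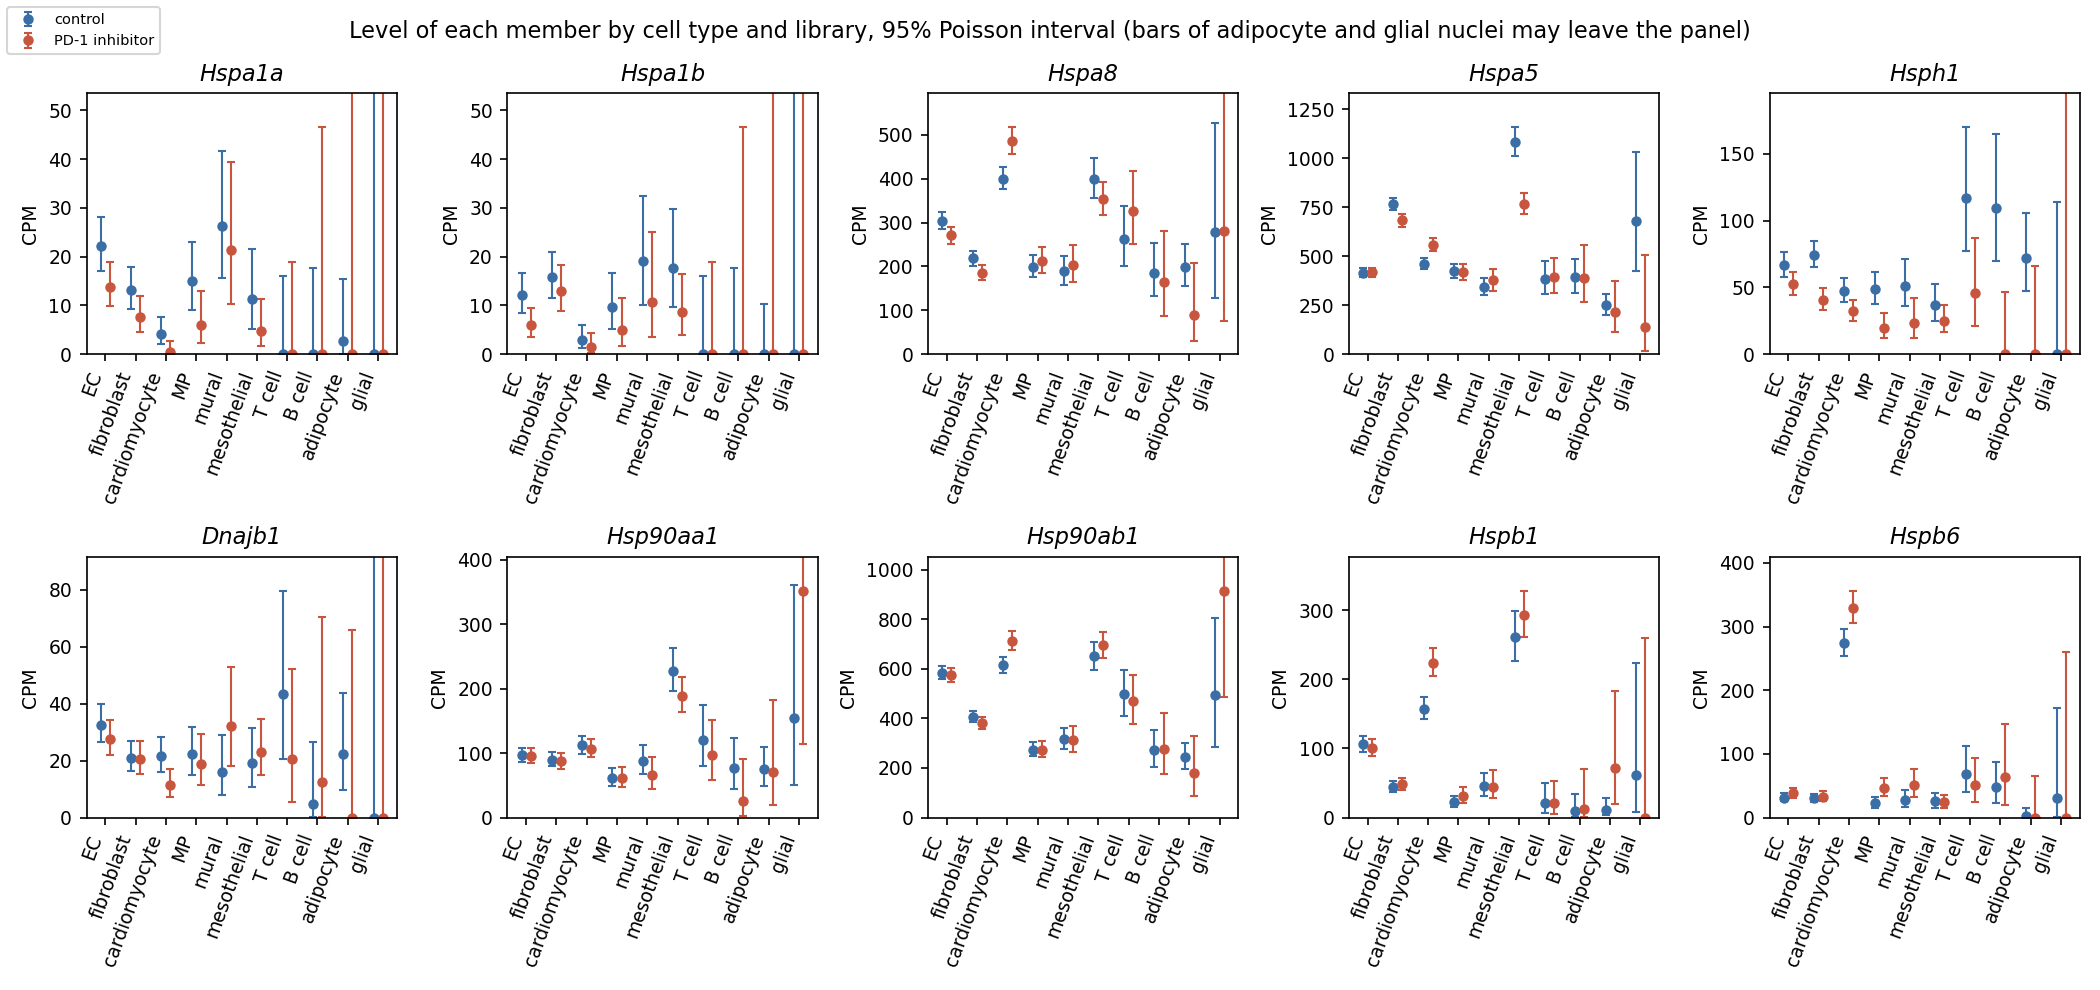
Level of each gene in CPM (linear axes from 0) in each of 10 cell types, with control and PD-1 inhibitor as separate points and bars for 95% Poisson intervals, which may leave the panel for adipocyte and glial nuclei. Hspb6 stands at 274 CPM in control cardiomyocytes, Hspb1 at 261 CPM in control mesothelial cells, and Hsph1 is lower in PD-1 inhibitor in the 9 types that hold a UMI of it.

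PD-1 inhibitor had less Hsph1 than control in 9 of the 9 cell types that held a UMI and beyond counting error in 8. Fibroblasts had 74.6 CPM (223 UMIs) in control and 40.7 CPM (101 UMIs) in PD-1 inhibitor, a log2 ratio of -0.87 (-1.23 to -0.53). MPs had 48.5 and 19.8 CPM (-1.26, -2.09 to -0.55), and mural cells 51.2 and 23.5 CPM (-1.08, -2.25 to -0.11). The difference was smallest in ECs, with 66.4 and 52.5 CPM and a log2 ratio of -0.34 (-0.65 to -0.03), and in mesothelial cells it lay at -0.55 (-1.37 to 0.26) and did not exceed counting error. Among lymphocytes, T cells had 117 CPM (27 UMIs) and 45.9 CPM (9 UMIs), while B cells had 23 UMIs in 175 control nuclei and 0 in 80 PD-1 inhibitor nuclei, at least 2.90-fold lower (against a floor of 3 UMIs in the library). Adipocytes had 26 UMIs and 0, at least 1.35-fold lower, but with only 16 PD-1 inhibitor nuclei. Glial nuclei held 0 UMIs in both.

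Counted by cluster, Hsph1 was lower in PD-1 inhibitor in 18 of 20 clusters, 9 beyond counting error, and higher beyond it in 0. The plot of Hsph1 by cluster shows those of ECs, fibroblasts, MPs and mural cells. The EC cluster led by Aplnr had 45.6 and 18.2 CPM (-1.28, -2.38 to -0.38), and the EC cluster led by Nrg1 had 74.8 and 86.7 CPM (0.21, -0.31 to 0.75). ECs were thus mixed. Fibroblast clusters led by Cilp and by Fbn2 had log2 ratios of -0.86 and -0.88. The mural cluster holding the smooth muscle genes Cnn1 and Myh11 had 159 CPM in control and 58.3 CPM in PD-1 inhibitor (-1.34, -3.20 to -0.02). In that cluster Hspa1a stood at 55.4 CPM (8 UMIs) and 105 CPM (9 UMIs), the other way round from Hsph1, on few UMIs.

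**Figure D3:**
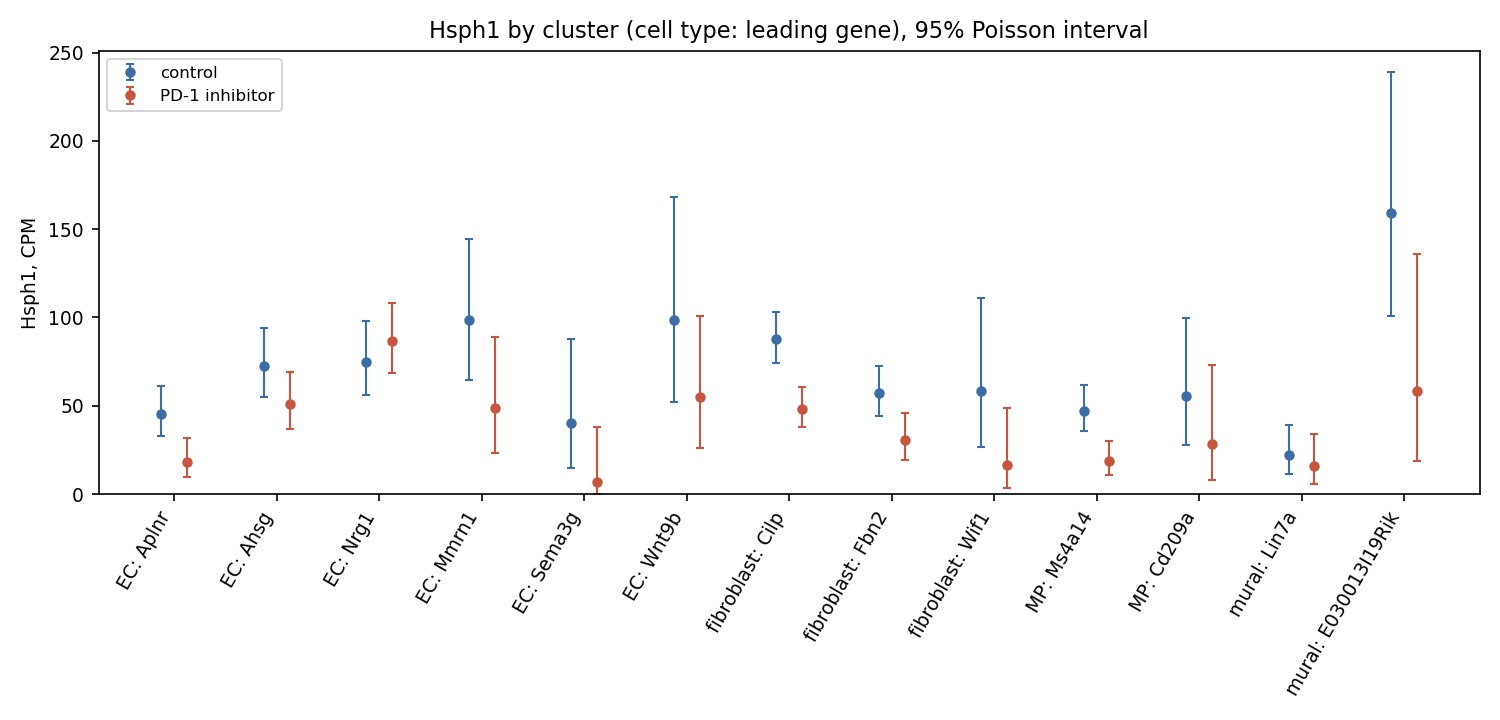
Level of Hsph1 in CPM in each cluster of ECs, fibroblasts, MPs and mural cells, named by cell type and leading gene, with control and PD-1 inhibitor as separate points and bars for 95% Poisson intervals. The EC cluster led by Aplnr has 45.6 CPM in control and 18.2 CPM in PD-1 inhibitor, and the EC cluster led by Nrg1 has 74.8 and 86.7 CPM.

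Dnajb1 was lower beyond counting error in 1 type, cardiomyocytes, with 21.5 CPM (52 UMIs) in control and 11.3 CPM (23 UMIs) in PD-1 inhibitor (log2 ratio -0.90, -1.70 to -0.19). In ECs it was at 32.5 and 27.6 CPM and in fibroblasts at 21.1 and 20.5 CPM, with intervals that include equal levels. In mural cells it pointed the other way, at 16.1 CPM (11 UMIs) and 32.1 CPM (15 UMIs), a ratio of 0.98 (-0.22 to 2.26).

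Hspa5 was at its highest level in mesothelial cells, at 1081 CPM in control and 766 CPM in PD-1 inhibitor, a log2 ratio of -0.50 (-0.64 to -0.36). Fibroblasts, which secrete collagen through the ER, were next in control at 765 CPM and stood at 683 CPM in PD-1 inhibitor (-0.16, -0.25 to -0.07). Mesothelial cells and fibroblasts were separated beyond their intervals in control and not in PD-1 inhibitor. Cardiomyocytes differed in the other direction, with 461 and 558 CPM (0.27, 0.15 to 0.39, but 0.051 with the same mix of mitochondrial groups, described below). ECs had 416 and 417 CPM. From the low to the high mitochondrial group of ECs the log2 ratio was -0.04, -0.06 and -0.21 (-0.38 to -0.04). The ratio near 0 over all nuclei thus covered types that differed in direction. In the EC cluster led by Ahsg the ratio was -0.45 (-0.66 to -0.24) and in that led by Aplnr 0.40 (0.09 to 0.70).

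Hspa8 was highest in cardiomyocytes and mesothelial cells, at 400.4 and 400.1 CPM in control, and in PD-1 inhibitor cardiomyocytes stood at 486 CPM against 354 CPM in mesothelial cells. The cardiomyocyte log2 ratio was 0.28 (0.15 to 0.41), while ECs (304 and 271 CPM, -0.17, -0.31 to -0.03) and fibroblasts (218 and 185 CPM, -0.24, -0.41 to -0.06) were lower in PD-1 inhibitor. The cardiomyocyte direction was not stable to the mitochondrial content of the nuclei, as described next to the plot of cardiomyocyte groups.

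Hsp90aa1 did not differ beyond counting error between the libraries in any type. It was highest in mesothelial cells among types with over 10 UMIs in each library, at 228 and 189 CPM, against 61.9 and 61.5 CPM in MPs. Below the level of types, and picked after the values were seen, the EC cluster led by Sema3g, an arterial marker, had 80.7 CPM (12 UMIs) in control and 219 CPM (32 UMIs) in PD-1 inhibitor (log2 ratio 1.41, 0.45 to 2.53), while the EC cluster led by Aplnr had 75.3 and 44.0 CPM (-0.76, -1.45 to -0.13). Hsp90ab1 was at 650 and 694 CPM in mesothelial cells, 613 and 713 CPM in cardiomyocytes (log2 ratio 0.22, 0.11 to 0.32), 584 and 574 CPM in ECs and 274 and 274 CPM in MPs. Cardiomyocytes were the only type whose interval excluded equal levels for Hsp90ab1. In ECs split into mitochondrial groups, described below, the log2 ratios of Hsp90ab1 were -0.38 (-0.62 to -0.14), -0.04 (-0.22 to 0.13) and -0.19 (-0.32 to -0.05).

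Hspb6, a small heat shock protein of muscle, was a cardiomyocyte transcript, at 274 CPM (663 UMIs) in control and 330 CPM (669 UMIs) in PD-1 inhibitor, with a log2 ratio of 0.27 (0.11 to 0.43). Other types held between 2.77 and 69.1 CPM in control. Hspb1 was highest in mesothelial cells, at 261 CPM (206 UMIs) and 293 CPM (304 UMIs), followed by cardiomyocytes at 158 and 224 CPM (0.51, 0.31 to 0.71) and ECs at 106 and 101 CPM (-0.07, -0.31 to 0.16). The cardiomyocyte value of Hspb1 was 0.067 with the same mix of mitochondrial groups in both libraries and 0.024 in nuclei with at most 5% mitochondrial UMIs. A list of 12 transcripts abundant in cardiomyocytes moved with the small heat shock proteins: its summed level in cardiomyocyte nuclei was 70907 CPM in control and 82082 CPM in PD-1 inhibitor, with a median log2 ratio of 0.39, and its part in the values of Hspb6 and Hspb1 was not tested. Per 1000 UMIs of that list, Hspb6 was at 3.86 (3.57 to 4.17) and 4.02 in cardiomyocytes. On the same scale Hspb1 was at 2.22 (2.01 to 2.46) in control and 2.73 (2.49 to 3.00) in PD-1 inhibitor, so it was not level.

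MPs were the 1 type with at least 50 UMIs of Hspb6 in which it was past 1.5-fold, at 22.4 CPM (30 UMIs) in control and 46.6 CPM (47 UMIs) in PD-1 inhibitor, a log2 ratio of 1.05 (0.37 to 1.77). Per 1000 UMIs of the cardiomyocyte list, MPs held 4.42 Hspb6 UMIs (2.98 to 6.31) in control and 8.65 (6.35 to 11.5) in PD-1 inhibitor, ECs 5.83 and 6.38, and fibroblasts 6.75 and 7.05. In nuclei of the Acta1 cardiomyocyte cluster described below it was 6.53 and 5.76. The cardiomyocyte list itself was at 5062 and 5394 CPM in MPs, and its part in the MP value was not tested.

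**Figure D4:**
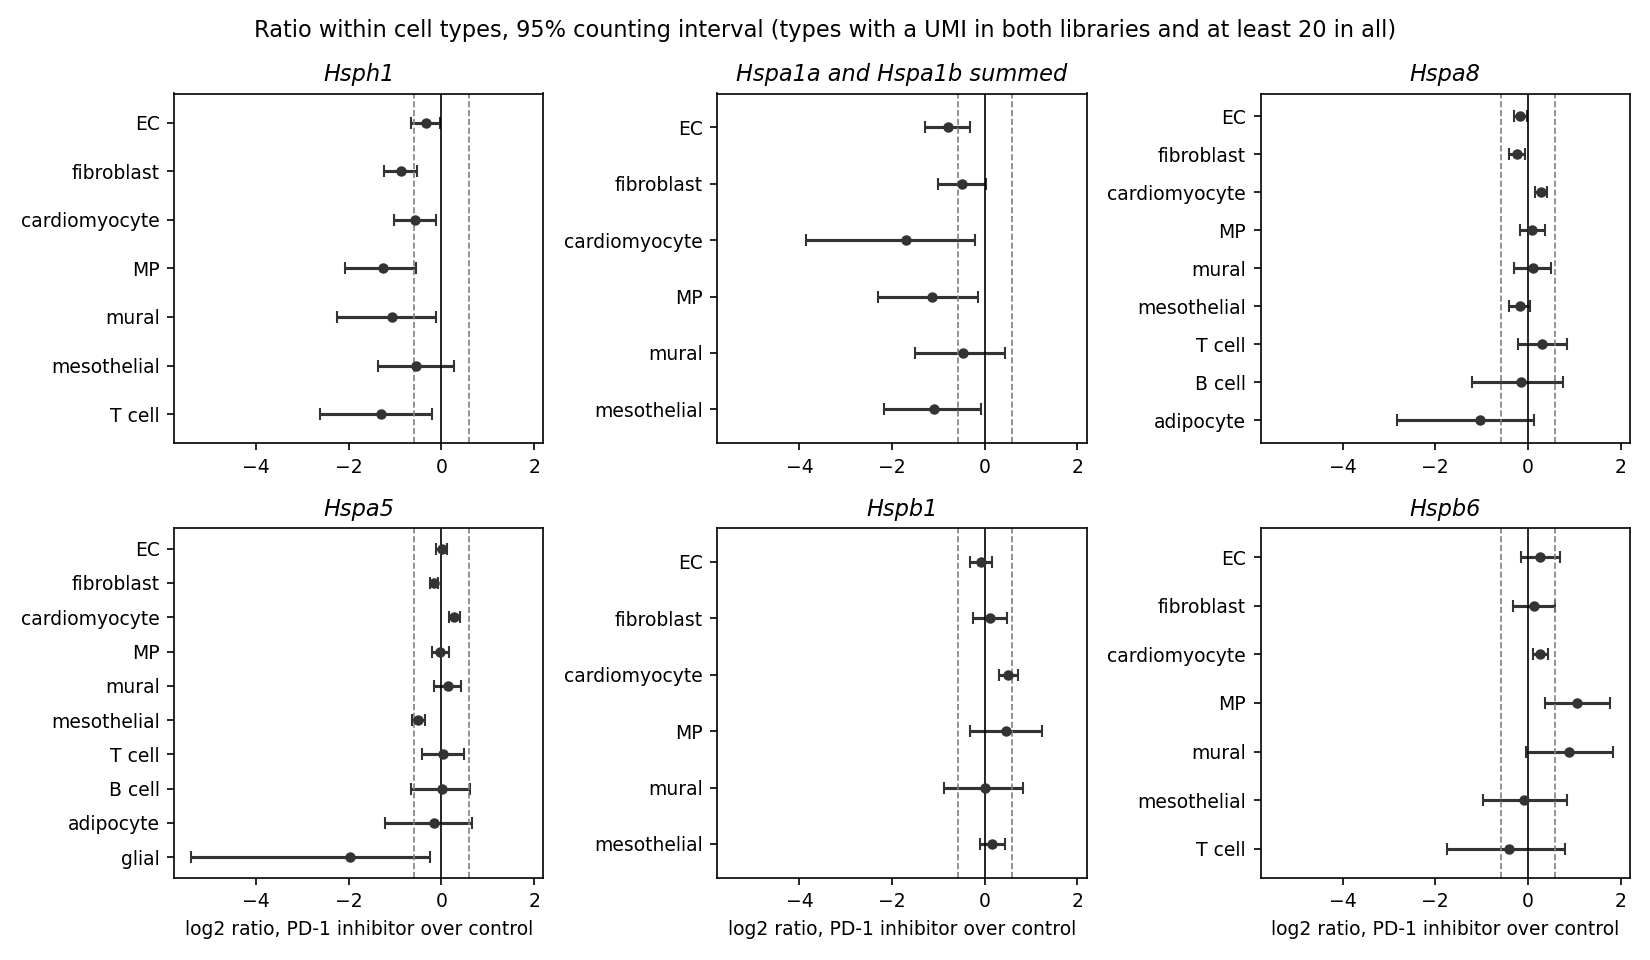
Log2 ratio of PD-1 inhibitor over control for Hsph1, Hspa1a and Hspa1b summed, Hspa8, Hspa5, Hspb1 and Hspb6 in the cell types with a UMI in both libraries and at least 20 in all, with 95% intervals for counting error and dashed lines at 1.5-fold. Hsph1 lies below 0 in every type drawn, and Hspb6 lies at 1.05 in MPs.

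Within the 4 most numerous types the genes past 1.5-fold were few. In ECs 2 of 10 genes were lower (Hspa1a, -0.67, and Hspa1b, -1.02), where 4.42% of genes were, and 0 were higher, where 5.96% were. In fibroblasts 2 of 10 were lower (Hspa1a, -0.75, -1.64 to 0.06, and Hsph1), where 4.03% were, and 0 were higher, where 5.67% were. In cardiomyocytes 8 genes had 50 UMIs, of which 1 was lower (Dnajb1), where 8.07% of genes were, and 0 were higher, where 8.18% were. In MPs 7 genes had 50 UMIs, of which 1 was lower (Hsph1), where 6.78% were, and 1 was higher (Hspb6), where 6.98% were. The median log2 ratio over those genes was -0.12 in ECs, -0.13 in fibroblasts, 0.24 in cardiomyocytes and 0.00 in MPs, beside medians over all genes of 0.01, 0.00, -0.01 and -0.03.

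Cardiomyocyte nuclei differed in their share of mitochondrial UMIs, and several of the 10 genes differed with it. The cluster led by Acta1, the skeletal muscle actin gene, held 502 control and 521 PD-1 inhibitor nuclei with medians of 9.40% and 8.46% mitochondrial UMIs. Splitting cardiomyocytes by mitochondrial share into 3 groups of equal size over both libraries gave 555, 325 and 400 control nuclei and 235, 465 and 390 PD-1 inhibitor nuclei in the low, middle and high group, so the libraries differed in their mix. From low to high, Hsp90ab1 was at 125, 624 and 1628 CPM in control and 132, 553 and 1364 CPM in PD-1 inhibitor. Hspa8 was at 170, 492 and 822 CPM in control and 110, 360 and 928 CPM in PD-1 inhibitor, and Hspb6 at 72.0, 282 and 690 CPM and 80.0, 265 and 605 CPM. Both libraries climbed with mitochondrial share for these 3 genes. With the same mix of the groups in both libraries, a comparison added after seeing the data, the cardiomyocyte log2 ratios of Hspa8, Hsp90ab1 and Hspb6 became -0.09, -0.21 and -0.13, and the median over the genes became -0.17. The higher cardiomyocyte levels of these 3 genes in PD-1 inhibitor thus did not hold with the same mix. Hspb1 and Hspa5 came down from 0.51 and 0.27 to 0.067 and 0.051. From the low to the high group the log2 ratio of Hspb1 was -0.18, -0.071 and 0.17, each with an interval that includes equal levels, and that of Hspa5 was 0.42 (0.17 to 0.66), 0.053 and -0.18.

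Hsph1 followed another pattern. In control it was at 40.8, 55.9 and 55.8 CPM from the low to the high group, and in PD-1 inhibitor at 10.002, 16.8 and 66.0 CPM. Its log2 ratios were -1.93 (-3.54 to -0.81), -1.71 (-2.87 to -0.68) and 0.24 (-0.42 to 0.91). In the Acta1 cluster Hsph1 was at 59.1 and 53.4 CPM (-0.15, -0.77 to 0.48). With the same mix the cardiomyocyte ratio of Hsph1 was -0.76. In ECs, fibroblasts and MPs split in the same way Hsph1 was lower in PD-1 inhibitor in 3 of 3 groups each, and Hspa1a was lower in 3 of 3 in those types and in cardiomyocytes, there on 5 and 0, 3 and 1, and 2 and 0 UMIs in control and PD-1 inhibitor. Its copy Hspa1b was lower in 2 of 3 groups in each of the 4 types. The mix of groups differed in ECs too, with 1174, 830 and 810 control and 602, 945 and 966 PD-1 inhibitor nuclei. In control ECs Hsp90ab1 was at 368, 562 and 895 CPM and Hspa5 at 261, 438 and 601 CPM. Both were lower in PD-1 inhibitor in 3 of 3 EC groups, though nearly level over ECs as a whole. MPs had 557, 392 and 310 control and 157, 321 and 406 PD-1 inhibitor nuclei.

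**Figure D5:**
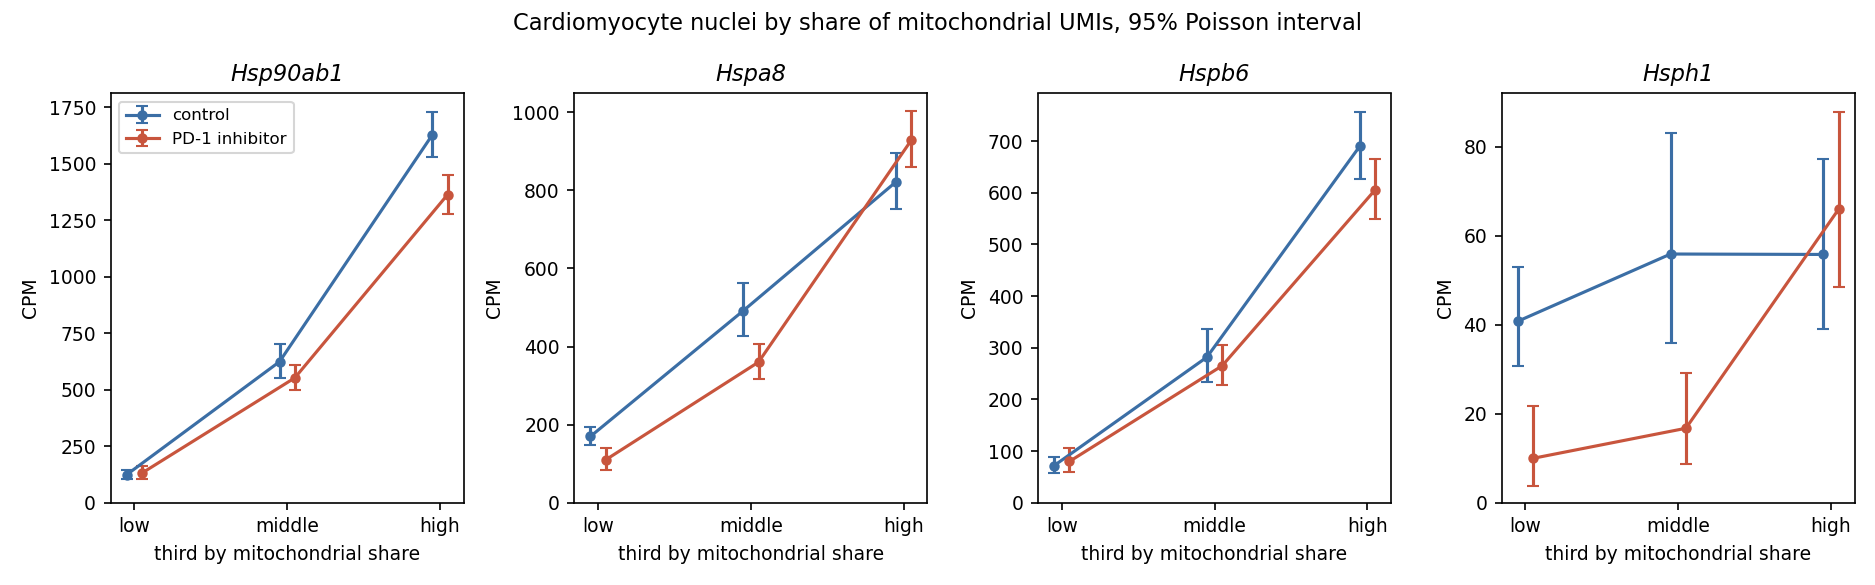
Level in CPM of Hsp90ab1, Hspa8, Hspb6 and Hsph1 in cardiomyocyte nuclei split into 3 equal groups by their share of mitochondrial UMIs, for control and PD-1 inhibitor, with bars for 95% Poisson intervals. Hsp90ab1 goes from 125 to 1628 CPM in control and from 132 to 1364 CPM in PD-1 inhibitor, while Hsph1 is lower in PD-1 inhibitor in the low and middle groups and not in the high group.

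Most of the genes were found in few nuclei. A UMI of any of the 10 genes was found in 67.6% of control and 67.3% of PD-1 inhibitor nuclei, and in 47.9% and 47.1% once each nucleus was thinned to 500 UMIs. Hsph1 was found in 5.59% of control and 3.58% of PD-1 inhibitor nuclei (2.59% and 1.47% thinned), and Hspa1a in 1.22% and 0.80% (0.61% and 0.41% thinned). Hspb6 was found in 28.4% and 31.7% of cardiomyocyte nuclei, at medians of 1404 and 1424 UMIs, against 1.91% and 3.73% of MPs, at medians of 903 and 966.5 UMIs. After thinning, 58 control nuclei held Hspa1a and 43 held Hspa1b, and 0 held both, where the product of the shares gives 0.262 nuclei. In PD-1 inhibitor 31 and 18 nuclei held them and 0 held both, where the product of the shares gives 0.0730 nuclei, so co-detection was below what this depth could show.

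Other genes of the pathway, taken from lists fixed for this work with earlier results known, mostly stayed under 1.5-fold over all nuclei. So did most of all 14372 genes, of which 4.57% were higher and 5.03% lower past it. A count of 1 gene in 20 or in 19 is near those shares. Of 20 other heat shock factor targets, 1 was higher (Ubb, a polyubiquitin gene, at 427 and 642 CPM, log2 ratio 0.59) and 0 lower, with a median of -0.04. Cryab stands in this list and among the small heat shock proteins, and Hsp90b1 in both the HSP90 and ER lists. Of 4 genes listed under heat shock factors 0 were past the fold, with a median of 0.11 and Hsf1 at 0.02. The 4 include Hsbp1, at 0.56, which binds and restrains heat shock factor 1 and is not itself such a factor. Of 19 other HSP70 and HSP90 genes and partners 1 was higher (Hspa2, 62 and 81 UMIs, 0.62) and 0 lower, with a median of 0.11. The 5 other small heat shock proteins were all above 0, with a median of 0.33, Cryab at 0.18 and Hspb7 at 0.33, beside a median of 0.31 for the 12 cardiomyocyte transcripts (Myh6 0.13, Ttn -0.42). Of 20 measured ER chaperones and unfolded protein response genes 0 were past the fold, with a median of 0.07, Hsp90b1 at 0.11 and Calr at 0.25. The 8 chaperonin subunits had a median of 0.09, with Cct4 at -0.07 and Cct8 at 0.20, and 0 past the fold.

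The list that differed was the 14 immediate early genes, transcribed within minutes of many stimuli, including handling. Over all nuclei 8 of these were lower past 1.5-fold, where 5.03% of 14372 genes were, and 0 higher, where 4.57% were. The median of the list was -0.84. The 8 were Fos at -3.37, Egr1 at -2.17, Fosb at -1.90, Nr4a1 at -1.82, Junb at -1.26, Dusp1 at -1.08, Zfp36 at -1.03 and Ier2 at -0.66. The summed level of the 14 genes was 1661 CPM in control and 920.4 CPM in PD-1 inhibitor. By type it was 2454 and 1143 CPM in ECs and 613 and 460 CPM in cardiomyocytes. It was lower in PD-1 inhibitor in every type but T cells (877 and 949 CPM) and B cells (639 and 869 CPM). Over all nuclei the 8 genes were lower in the same library as Hspa1a, Hspa1b and Hsph1, and their part in the differences of those genes was not tested.

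Across 20 profiles (10 cell types in both libraries, which share libraries and depth), the genes most like Hspa1a by Pearson correlation of log2(CPM + 1), among 11480 genes, were Zfp334 (0.95), Tpmt (0.94) and Hspa1b (0.93). Hspa8 was most like Pebp1 (0.87), Hsp90ab1 (0.87) and Fkbp4 (0.85), the last a co-chaperone of HSP90. Hspb6 was most like the sarcomere genes Mybpc3 (0.97) and Actn2 (0.94) and the calcium-binding Hrc (0.94). Hspb1 was most like Cpe, 1010001N08Rik and Wdtc1 (0.89 each), and Hsp90aa1 most like Plekha7 (0.92), Ddr1 (0.83) and Itm2a (0.81). These are descriptions, and profiles of scarce types rest on few UMIs.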

How the data were processed

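SnRNA-seq matrices of 1 control and 1 PD-1 inhibitor heart library (Singleron GEXSCOPE) were analysed. The authors deposited raw UMI counts per gene and nucleus, not normalized. The submitters' processing notes name the genome build GRCm38 (mm10). The aligner, counter, annotation and use of strand were not given in the sources used here. Kept nuclei had 200 genes or more and no more than 20% mitochondrial UMIs, and doublets called by Scrublet, 592 (5.85%) in control and 308 (3.87%) in PD-1 inhibitor, were removed. Counts were scaled to 10000 per nucleus and log-transformed, and 2000 variable genes, 30 principal components, 15 neighbours and Leiden clustering at resolution 1.0 were used (Python 3.11.15, scanpy 1.11.5, leidenalg 0.10.2). Clusters were named from marker lists, with naming thresholds from earlier work on these data. Scaling genes was chosen after unscaled clustering was seen to merge glial nuclei with others. Unscaled, 247 control and 135 PD-1 inhibitor nuclei were named glial, against 30 and 10 with scaling.

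UMIs were summed per library and type. CPM has exact Poisson intervals, shares exact Clopper-Pearson intervals and ratios exact conditional binomial intervals, all at 95% and for counting error only. Those of CPM and of ratios treat UMIs as independent, also where several come from 1 nucleus. Log2 ratios add 0.5 UMI to each sum, and genes needed 50 UMIs over both libraries to be counted past 1.5-fold. A level of 0 has a floor of 3 UMIs. The 0 unused per-sample columns leave nothing out. Gene positions came from GENCODE annotation of GRCm38, which held 32445 of the 32589 gene identifiers, and promoters from RefSeq. The log2 ratio and its interval were tested on simulated counts, drawn as independent Poisson values for all nuclei and for MPs. That test did not cover filtering, clustering or naming, nor UMIs that cluster within nuclei. Values of 1 cardiomyocyte cluster on its own are not reported here.

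The genes and lists were chosen with earlier results of these data known. All 10 genes are named, and of other lists those past 1.5-fold or otherwise the 2 with the most UMIs, plus the 3 closest profiles of 5 of the genes among genes with at least 200 UMIs. Alternatives changed the filters, resolution, thinning, weighting and the fold.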

Additional observations from a re-analysis of the deposited data

Results flagged for a closer look

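Hspa5 and Hspa8 differed between the libraries in opposite directions in different cell types, each beyond counting error, and the difference between types was not tested, since there is 1 library per group. The log2 ratio of PD-1 inhibitor over control for Hspa5 was 0.27 in cardiomyocytes, -0.16 in fibroblasts, -0.50 in mesothelial cells and -1.98 in glial cells, the last on 22 and 2 UMIs. For Hspa8 it was 0.28 in cardiomyocytes, -0.17 in ECs and -0.24 in fibroblasts. The Hspa8 value in cardiomyocytes turned to -0.09 with the same mix of mitochondrial groups in both libraries, and the Hspa5 value in cardiomyocytes came down to 0.051. Within the low, middle and high mitochondrial groups of cardiomyocytes the Hspa5 ratio was 0.42, 0.053 and -0.18.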

How the results depend on the processing

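No paired analysis was possible because each group has 1 library. With a 2-fold threshold the count of genes past the fold over all nuclei went from 3 to 0, and it was 2 with at most 5% mitochondrial UMIs and without the Acta1 cluster. Over the alternatives the log2 ratio over all nuclei ranged from -0.90 to -0.69 for Hspa1a, from -0.73 to -0.53 for Hspa1b and from -0.91 to -0.66 for Hsph1. The cardiomyocyte median of 0.24 was 0.024 with at most 5% mitochondrial UMIs, 0.10 as a mean over nuclei, -0.0089 thinned, 0.074 with no UMI minimum and -0.17 with the same mix of mitochondrial groups. In cardiomyocytes Hspa8 turned to -0.35 with at most 5% mitochondrial UMIs, -0.053 thinned, -0.090 with the same mix and -0.34 without the Acta1 cluster, Hsp90ab1 to -0.0089 thinned and -0.21 with the same mix, and Hspb6 to -0.13 with the same mix. The share of nuclei with a UMI of the 10 genes was 47.9% and 47.1% when thinned. Of 629 values of single genes under alternatives, 589 stayed within their error, 33 moved and 7 reversed. The 589 include the values with a minimum of 20 UMIs and with no minimum. Those settings cannot change the ratio of a single gene, so they say nothing about its stability. The unscaled clustering, the same mix and leaving out the Acta1 cluster were added after seeing the data. Glial cells formed no cluster with at least 500 genes per nucleus or at resolution 0.5. With 1 library per group no spread between hearts is known, and types with few nuclei rest on few UMIs.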
